A study of Mus musculus with 4 samples.

Results

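The 10 genes described here encode regulators of cellular energy and nutrient sensing: the AMPK subunits Prkaa1, Prkaa2, Prkab1, Prkab2 and Prkag1, the AMPK-activating kinase Stk11 (LKB1), the TSC subunits Tsc1 and Tsc2, and Mtor and Rptor of mTORC1. They were chosen by name and not by a rule on their values, though earlier results of these data were known. Each had 1 row among the 13085 genes. Their levels were measured by RNA-seq in 4 stable lines of 3T3-L1, a mouse preadipocyte line that accumulates fat when treated with adipogenic hormones, to ask how the expression of CACUL1 bears on fat cell differentiation. FLAG-CACUL1 cells carried a FLAG-tagged CACUL1 vector and were compared with FLAG cells, which carried the empty vector. sh-CACUL1 cells carried a short hairpin RNA against CACUL1 and had as their control the sh-Luc line, with a hairpin against luciferase. All 4 lines were grown to confluence and induced with rosiglitazone at 5 μM, IBMX at 0.5 mM, dexamethasone at 1 μg/mL and insulin at 5 μg/mL, then kept in insulin alone, and RNA was taken on day 8. The lines were selected as drug-resistant colonies, with G418 for the FLAG vectors and hygromycin B for the hairpin vectors, so the controls differ from each other in vector and drug as well. Whether a line is 1 clone or a pool of colonies was not stated. There was 1 sample of each line, so nothing was tested and no value has a replicate error.

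AMPK is a trimer of a catalytic alpha, a scaffolding beta and a nucleotide-binding gamma subunit. It is switched on when AMP and ADP rise relative to ATP, after phosphorylation of the alpha subunit by LKB1, and it turns off fat and sterol synthesis while turning on fuel use. The kinase mTORC1, built on MTOR and its substrate-recruiting partner RPTOR (Raptor), does the opposite: fed by insulin and amino acids, it drives protein and lipid synthesis and is needed for adipogenesis. The TSC complex of TSC1 and TSC2 holds mTORC1 back by acting on the small GTPase RHEB, and AMPK phosphorylates both TSC2 and RPTOR to restrain it.

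Levels are given as FPKM, the fragments of a gene scaled to its transcript length and to the mapped total of the sample. Differences are log2 ratios of FPKM + 1, and a gene is counted as different at 2-fold or more. Depth was not stated, and the spacing of low FPKM values put it near 14492800 fragments for FLAG and 14265300 for FLAG-CACUL1, against 23980800 for sh-Luc and 15060200 for sh-CACUL1. Cacul1 itself was at 9.61 FPKM in FLAG against 11.8 with FLAG-CACUL1, and at 10.2 with sh-Luc against 5.39 with sh-CACUL1. All 8 adipocyte markers examined stood 2-fold or more below FLAG in the FLAG-CACUL1 line and 2-fold or more above sh-Luc in the sh-CACUL1 line. Their summed level was 8398 FPKM in FLAG and 915 in FLAG-CACUL1 cells, with 1666 for sh-Luc and 16518 for sh-CACUL1, and they were also lower in sh-Luc than in FLAG, 8 of 8. The summed level of 6 preadipocyte and fibroblast markers was 4819 FPKM in FLAG and 6880 in FLAG-CACUL1 cells, with 3088 for sh-Luc and 625 for sh-CACUL1. Col1a1 and Col3a1 carried most of that sum, and the markers did not move as one: 3 of 6 were higher and 1 lower by 2-fold in FLAG-CACUL1 against FLAG, and 2 were higher and 3 lower in the hairpin pair. The preadipocyte marker Dlk1 was at 97.2 FPKM in FLAG and 39.4 in FLAG-CACUL1 cells, with 0.220 for sh-Luc and 21.2 for sh-CACUL1, and Thy1 was at 0.663 with sh-Luc against 34.3 with sh-CACUL1. Of 4 macrophage markers listed, Cd68 was at 16.2 FPKM in FLAG and between 0.962 and 1.44 in the other lines. Csf1r was below 1 FPKM in every line, at 0.607 in FLAG and 0.397 or less in the others. Ptprc and Adgre1 had no row, so Cd68 alone does not show macrophages in FLAG. The part of cell makeup in the differences below was not tested, and in such bulk RNA fewer cells of a type cannot be told apart from less RNA per cell.

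Of the 10 genes, Prkab2 had the widest log2 range over the lines and Prkaa2 the lowest levels. Their promoters are shown because the differences below turn on these genes, and those of their paralogs Prkab1 and Prkaa1 for comparison. Each runs from 250 bases before to 50 bases after the start given by RefSeq on GRCm38.p6, 5′ to 3′ on the gene's strand. Capitals mark GGGCGG, the core of the box bound by SP1, or its reverse complement.
Prkaa1, chr15:5143611-5143910, plus strand: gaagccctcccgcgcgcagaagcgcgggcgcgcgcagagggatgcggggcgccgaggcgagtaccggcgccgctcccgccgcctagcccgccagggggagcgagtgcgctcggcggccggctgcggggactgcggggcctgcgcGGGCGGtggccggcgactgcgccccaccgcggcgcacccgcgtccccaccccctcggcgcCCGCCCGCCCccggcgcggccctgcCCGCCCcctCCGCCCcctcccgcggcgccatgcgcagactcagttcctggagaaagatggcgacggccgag
Prkaa2, chr4:105109849-105110148, minus strand: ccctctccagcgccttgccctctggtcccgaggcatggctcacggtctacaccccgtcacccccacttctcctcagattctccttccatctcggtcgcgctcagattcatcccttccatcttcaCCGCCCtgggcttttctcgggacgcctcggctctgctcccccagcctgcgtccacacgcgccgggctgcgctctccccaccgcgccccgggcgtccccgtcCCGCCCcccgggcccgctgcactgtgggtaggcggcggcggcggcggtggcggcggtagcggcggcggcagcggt
Prkab1, chr5:116024379-116024678, minus strand: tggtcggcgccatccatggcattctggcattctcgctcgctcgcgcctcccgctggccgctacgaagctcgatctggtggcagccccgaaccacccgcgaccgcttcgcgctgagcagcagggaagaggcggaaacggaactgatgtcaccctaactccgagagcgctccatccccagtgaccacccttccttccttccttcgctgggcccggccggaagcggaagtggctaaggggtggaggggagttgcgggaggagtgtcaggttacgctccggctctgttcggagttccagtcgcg
Prkab2, chr3:97657962-97658261, plus strand: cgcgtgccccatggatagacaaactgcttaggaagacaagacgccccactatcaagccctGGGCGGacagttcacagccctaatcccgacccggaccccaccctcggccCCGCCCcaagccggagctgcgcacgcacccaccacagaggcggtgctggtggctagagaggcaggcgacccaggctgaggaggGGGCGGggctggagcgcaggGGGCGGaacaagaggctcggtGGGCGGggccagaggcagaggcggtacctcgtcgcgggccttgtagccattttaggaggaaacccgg
All 4 windows were richer in G and C than most promoters, at 82.0% for Prkaa1, 72.7% for Prkaa2, 65.3% for Prkab1 and 68.0% for Prkab2, against a median of 52.7% over 32851 promoter windows. They held 52, 35, 30 and 23 CG dinucleotides in the same order, against a median of 7. The box GGGCGG, searched on both strands, occurred 5 times in Prkaa1, with a pair of matches that overlap, 2 times in Prkaa2 and 5 times in Prkab2 but had 0 matches in Prkab1, and 35.7% of all windows held it. None of the 4 windows held TATAAA, present in 13.6% of all windows, or CCAAT, present in 37.4%. The cAMP response element TGACGTCA, present in 1.79%, and the nuclear receptor half-site AGGTCA, present in 16.3%, also had 0 matches in them.

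**Figure D1:**
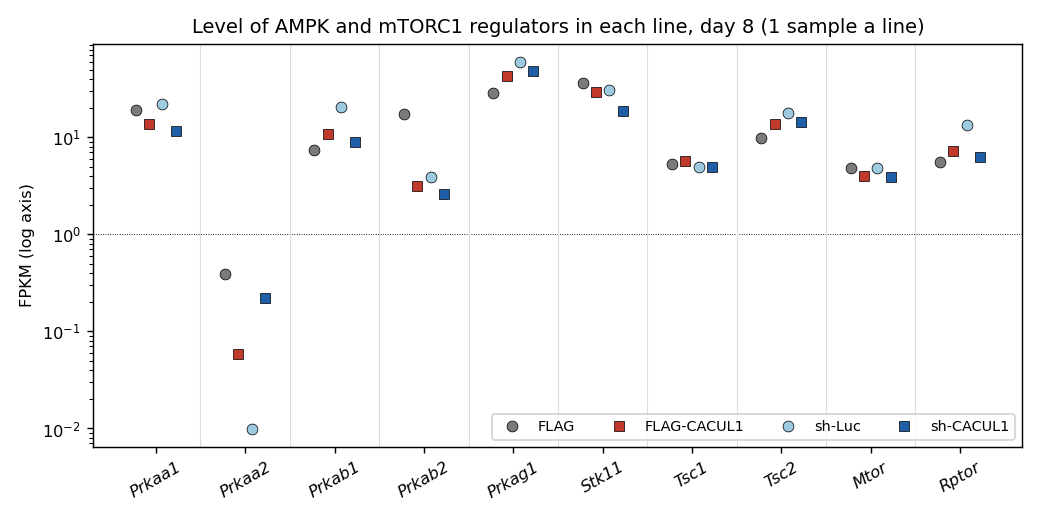
FPKM (log axis) of each of the 10 genes in the 4 lines, 1 point a sample, with a dotted line at 1 FPKM. Prkaa2 lies below 1 FPKM in every line, and Prkab2 stands at 17.3 FPKM in FLAG and at 3.88 or less in the other lines.

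In FLAG-CACUL1 against FLAG, 1 of the 10 regulators reached 2-fold. This was Prkab2, with a lower level in FLAG-CACUL1, which makes 10.0% of the genes against 14.7% of all genes in either direction and 7.22% in that direction. The median log2 ratio was -0.066 over the 10 genes and 0.092 over all genes. Between sh-CACUL1 and sh-Luc, 1 of 10 reached 2-fold as well, Prkab1, lower in sh-CACUL1, against 21.3% of all genes in either direction and 16.4% in that direction. Here 8 of the 10 genes were lower in sh-CACUL1, with a median of -0.36, but the median of all genes was itself -0.30. After quantile normalization, which sets the distributions of the samples equal, the all-gene median was -0.013 and that of the 10 genes was 0.013. None of the 10 reached 2-fold, against 9.0% of all genes higher and 8.28% lower. The count of lower genes was then 4 of 10, since Prkab2, Prkag1, Mtor and Tsc2 turned from below 0 to slightly above it. Before that step, each share in either direction was 1 gene of 10, so its distance from that of all genes cannot be read as a difference.

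**Figure D2:**
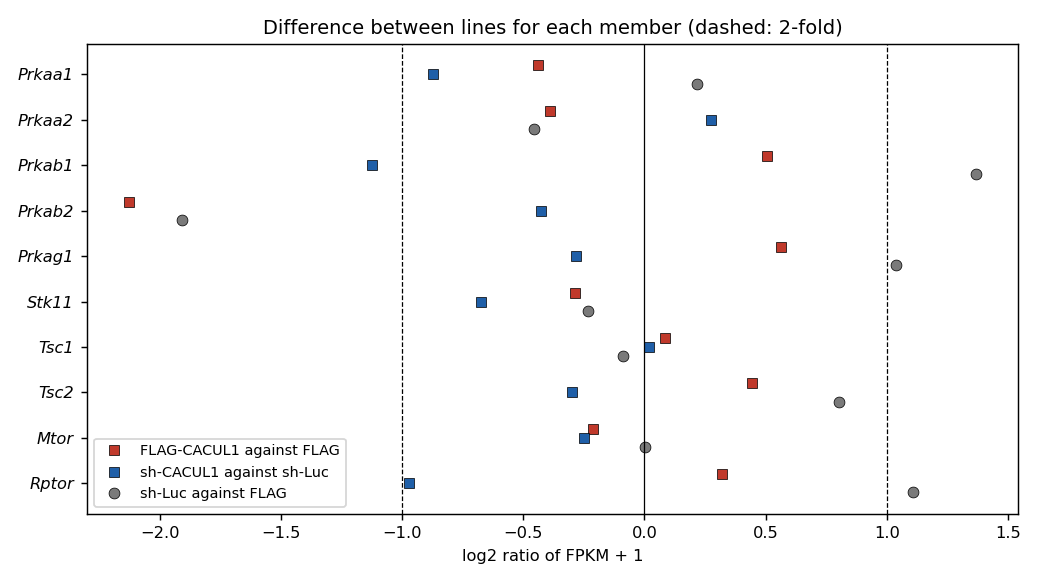
Log2 ratio of FPKM + 1 for each gene in FLAG-CACUL1 against FLAG (red squares), sh-CACUL1 against sh-Luc (blue squares) and sh-Luc against FLAG (grey circles), with dashed lines at 2-fold. Prkab2 at -2.13 and Prkab1 at -1.12 are the only squares past a dashed line, while 4 grey circles are.

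Stk11 (chr10:80115803-80130682 in GRCm38) encodes LKB1, the main upstream kinase of AMPK. Its level was 36.0 FPKM in FLAG and 29.3 in FLAG-CACUL1 cells, with 30.5 for sh-Luc and 18.7 for sh-CACUL1. It was lowest in sh-CACUL1, with log2 ratios of -0.29 for FLAG-CACUL1 against FLAG and -0.68 for sh-CACUL1 against sh-Luc. After quantile normalization these ratios were -0.28 and -0.32.

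Of the catalytic subunits, Prkaa1 (alpha1; NM_001013367, chr15:5143861-5181899) carried nearly all of the alpha message. Prkaa1 was at 19.0 FPKM in FLAG and 13.7 in FLAG-CACUL1 cells, with 22.2 for sh-Luc and 11.7 for sh-CACUL1. It was lower in both manipulated lines than in either control, with log2 ratios of -0.44 for FLAG-CACUL1 against FLAG and -0.87 for the hairpin pair. After quantile normalization these ratios were -0.47 and -0.46. Prkaa2 (alpha2; NM_178143, chr4:105029874-105109890), the form known from muscle and heart, was at 0.386 FPKM in FLAG and 0.0582 in FLAG-CACUL1 cells, with 0.00995 for sh-Luc and 0.222 for sh-CACUL1. FLAG and sh-CACUL1 were thus the high lines, and they are also the lines with the higher adipocyte marker sums. These levels stand for about 45, 7, 2 and 27 fragments. On fragments per depth, Prkaa2 was 6.33-fold lower with FLAG-CACUL1 than with FLAG (95% exact interval 2.83 to 16.6) and 21.5-fold higher with sh-CACUL1 than with sh-Luc (5.40 to 187). It was also 37.2-fold lower in sh-Luc than in FLAG (9.73 to 317), so the controls lay as far apart as either comparison. Such intervals cover counting error only and rest on the estimated depth. Because of the added 1 FPKM the log2 ratios were only -0.39 and 0.27, and at these levels Prkaa2 made up between 0.0448% and 1.99% of the summed alpha FPKM.

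A gene above both FLAG-CACUL1 and sh-Luc in both FLAG and sh-CACUL1, the lines with less Cacul1 in each comparison, had the order seen in Prkaa2. A link of this order to Cacul1 level was not tested. Cacul1 was at 9.61 FPKM in FLAG and 10.2 in sh-Luc, while Prkaa2 was 37.2-fold lower in sh-Luc. Prkaa2 was the only one of the 10 with this order, which 9.93% of all genes showed, and all 8 adipocyte markers had it. The opposite order was found for Prkab1 and Rptor, 2 of 10, and for 31.5% of all genes. Of 73 genes in the wider pathway lists below, 10 (13.7%) had the order of Prkaa2 and 23 (31.5%) the opposite.

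**Figure D3:**
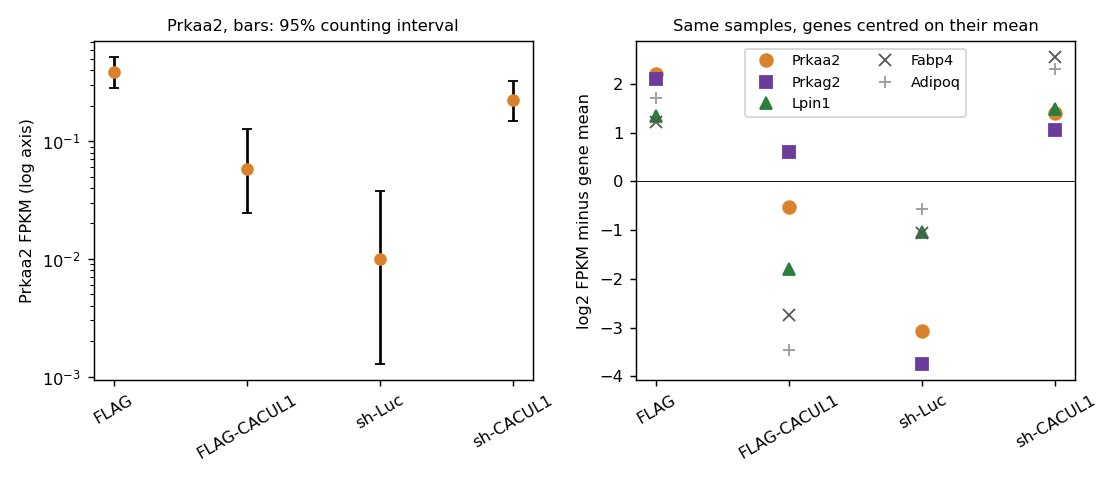
Left, Prkaa2 FPKM (log axis) in each line with the 95% counting interval; right, log2 FPKM minus the gene's mean over the 4 lines for Prkaa2, the gamma subunit gene Prkag2, the lipid phosphatase gene Lpin1 and the adipocyte genes Fabp4 and Adipoq. Prkaa2 was at 0.386 FPKM in FLAG and 0.222 in sh-CACUL1, above the other lines, as were the 4 other genes shown. Prkag2 and Lpin1 were among the 10 of 73 wider pathway genes with this order.

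The beta subunits tether the trimer and bind glycogen. Prkab1 (beta1; NM_031869, chr5:116013586-116024508) was at 7.38 FPKM in FLAG and 10.9 in FLAG-CACUL1 cells, with 20.6 for sh-Luc and 8.93 for sh-CACUL1. It stood highest in sh-Luc, and the log2 ratio was 0.50 for FLAG-CACUL1 against FLAG and -1.12 for sh-CACUL1 against sh-Luc, 2.31-fold lower on fragments (95% exact interval 2.02 to 2.64). That ratio was -0.72 after quantile normalization and 0.24 when sh-CACUL1 was set against FLAG. Prkab2 (beta2; NM_182997, chr3:97658193-97673812) was at 17.3 FPKM in FLAG and 3.19 in FLAG-CACUL1 cells, with 3.88 for sh-Luc and 2.63 for sh-CACUL1. FLAG alone was high. Prkab2 was 5.41-fold lower with FLAG-CACUL1 than with FLAG (95% exact interval 4.70 to 6.26), but it was also 4.46-fold lower in sh-Luc (4.01 to 4.97), and against sh-Luc the log2 ratio of FLAG-CACUL1 was -0.22. The beta message therefore differed in makeup: Prkab2 was 70.1% of the summed beta FPKM in FLAG and 22.6% in FLAG-CACUL1 cells, with 15.8% for sh-Luc and 22.8% for sh-CACUL1. The sum was 24.7 FPKM in FLAG and 24.5 in sh-Luc, and lower at 14.1 in FLAG-CACUL1 and 11.6 in sh-CACUL1.

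**Figure D4:**
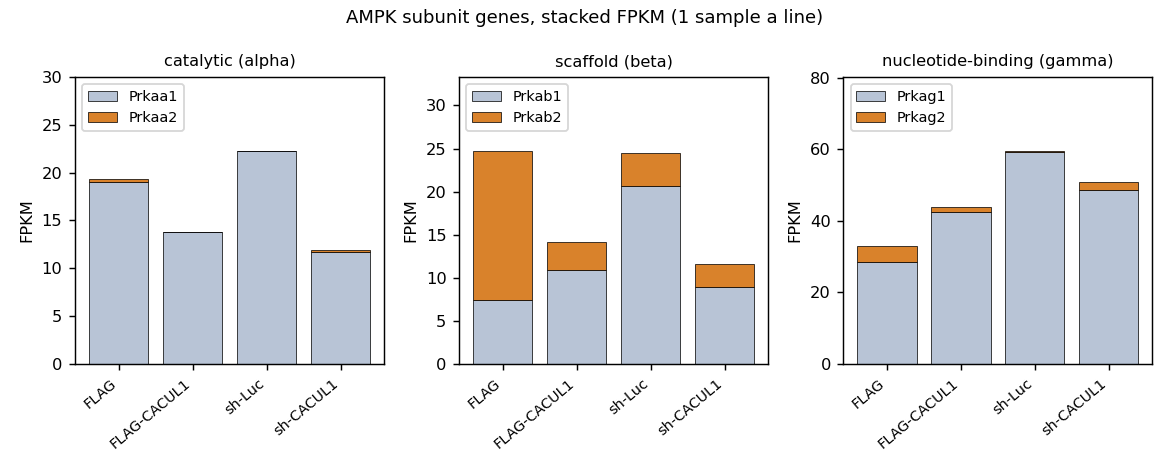
Stacked FPKM of the alpha, beta and gamma AMPK subunit genes in each line, with the first paralog in grey and the other in orange. Prkab2 fills 70.1% of the beta bar in FLAG and 15.8% in sh-Luc, while the alpha bars are almost all Prkaa1 and the gamma bars mostly Prkag1.

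Among the gamma subunits, which sense the nucleotides, Prkag1 (gamma1; NM_016781, chr15:98812797-98831521) was the most abundant of the 10 genes in every line but FLAG. Its level was 28.4 FPKM in FLAG and 42.4 in FLAG-CACUL1 cells, with 59.3 for sh-Luc and 48.6 for sh-CACUL1. FLAG was the low line, and the log2 ratios were 0.56 for FLAG-CACUL1 against FLAG and -0.28 for sh-CACUL1 against sh-Luc. Of the Prkag1 transcript, 39.9% of the 31-base stretches are also found in B130046B21Rik on the opposite strand. The library's strand was not stated, so their reads cannot be told apart. Prkag2, not one of the 10, made up 13.4% of the gamma FPKM in FLAG and 3.58% in FLAG-CACUL1 cells, with 0.129% for sh-Luc and 4.20% for sh-CACUL1.

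The TSC genes differed from each other. Tsc1 (hamartin; chr2:28641228-28691167), the stabilizing subunit, was at 5.27 FPKM in FLAG and 5.64 in FLAG-CACUL1 cells, with 4.90 for sh-Luc and 4.98 for sh-CACUL1, the narrowest log2 range of the 10. Tsc2 (tuberin; chr17:24595816-24632630), the subunit that acts on RHEB, was at 9.76 FPKM in FLAG and 13.6 in FLAG-CACUL1 cells, with 17.8 for sh-Luc and 14.2 for sh-CACUL1. It was lowest in FLAG, with log2 ratios of 0.44 and -0.30, and the ratio of Tsc2 to Tsc1 FPKM ran from 1.85 in FLAG to 3.62 in sh-Luc. Pkd1 lies against Tsc2 on the opposite strand and shares 10.6% of its 31-base stretches. Pkd1 was at 8.31 FPKM in FLAG and 12.9 in FLAG-CACUL1 cells, with 19.7 for sh-Luc and 5.34 for sh-CACUL1.

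Mtor (chr4:148448611-148557683), the kinase, was at 4.80 FPKM in FLAG and 4.001 in FLAG-CACUL1 cells, with 4.81 for sh-Luc and 3.89 for sh-CACUL1. The controls were nearly equal in FPKM, and each manipulated line was below its own control. The log2 ratios were -0.21 for the FLAG pair and -0.25 for the hairpin pair. After quantile normalization they were -0.32 and 0.22, and sh-Luc stood at -0.25 against FLAG. Rptor (chr11:119602905-119899576) was at 5.63 FPKM in FLAG and 7.27 in FLAG-CACUL1 cells, with 13.3 for sh-Luc and 6.28 for sh-CACUL1. It stood apart in sh-Luc, with log2 ratios of 0.32 for FLAG-CACUL1 against FLAG and -0.97 for sh-CACUL1 against sh-Luc. After quantile normalization these ratios were 0.22 and -0.53. The ratio of Rptor to Mtor FPKM was 1.17 in FLAG and 1.82 in FLAG-CACUL1 cells, with 2.76 for sh-Luc and 1.61 for sh-CACUL1.

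The difference between the controls, which shares a sample with each comparison, was of the same order as the differences above. Between sh-Luc and FLAG, 4 of the 10 genes reached 2-fold, against 21.0% of all genes: Prkab1, Prkag1 and Rptor were higher in sh-Luc (12.4% of all genes were higher) and Prkab2 was lower (8.58%). The log2 ratio of FLAG-CACUL1 against FLAG exceeded the control difference in size for 4 genes, Prkaa1, Prkab2, Stk11 and Mtor. That of sh-CACUL1 against sh-Luc exceeded it for 3, Prkaa1, Stk11 and Mtor. With median-of-ratios scaling, Stk11 left both lists, at -0.42 in the FLAG pair and -0.22 in the hairpin pair against -0.52 between the controls. Mtor left the second list, at 0.14 against -0.24, and Tsc1 entered it, at 0.41 against -0.33. By line, on FPKM as given, 6 of the 10 genes were highest in sh-Luc and 3 in FLAG. The lowest line was FLAG for 4 genes and sh-CACUL1 for 4. These counts depend on the scale of the samples. With median-of-ratios scaling, sh-Luc was no longer the top line for Prkaa1, Mtor, Prkag1 and Tsc2. Its log2 ratio to FLAG was then -0.063 for Prkaa1 and -0.24 for Mtor. The hairpin pair stood at 0.18 for Prkag1 and 0.15 for Tsc2. Prkab1 and Rptor kept sh-Luc as their top line. The median FPKM over all rows, as given, was also highest in sh-Luc, at 8.27, and lowest in sh-CACUL1, at 5.66. It was 6.71 in FLAG and 7.28 in FLAG-CACUL1, and the matching counts over all genes were not made.

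The genes around these regulators were read from 8 lists of pathway members, of which 73 of 79 genes had a row and the others were not analysed here. In FLAG-CACUL1 against FLAG, 14 of 73 (19.2%) reached 2-fold, against 14.7% of all genes. Of these, 6 (8.22%) were higher, against 7.51% of all genes, and 8 (11.0%) were lower, against 7.22%. By list these were 3 of 8 other AMPK subunit and upstream genes, 2 of 10 AMPK-related kinases, 2 of 9 AMPK substrates, 1 of 6 other mTORC1 and RHEB genes, 0 of 4 mTORC2 genes, 2 of 25 genes of lysosomal amino acid sensing, the 1 stress inhibitor of mTORC1 and 3 of 10 mTORC1 effectors. The AMPK-activating kinase Camkk2 was higher, at 17.9 FPKM against 3.77, as was Camkk1, at 3.16 against 0.645. So were the folliculin gene Flcn, at 29.1 against 11.0, the mTORC1 inhibitor subunit Akt1s1, at 68.0 against 27.2, and the S6 kinase Rps6kb1, at 8.85 against 3.30. Lamtor4, of the lysosomal Ragulator complex, was at 63.4 against 27.7. Lower were Lpin1, at 3.40 FPKM against 30.1, the LKB1-activated kinase Snrk, at 6.28 against 31.3, and the stress-induced mTORC1 inhibitor Ddit4, at 90.3 against 247. The AMPK and AKT substrate Tbc1d4 was at 3.18 against 9.63, the translation repressor Eif4ebp1 at 135 against 320, and the CREB coactivator Crtc2 at 12.3 against 27.6. None of these 12 genes reached 2-fold with sh-Luc as the control for FLAG-CACUL1, where their log2 ratios ran from -0.69 to 0.89. Flcn, Rps6kb1, Ddit4 and Eif4ebp1 changed direction there, and Camkk2 was at 0.47 and Lpin1 at -0.61. Prkag2 and Sik2 also reached 2-fold below FLAG, at log2 ratios of -1.07 and -1.10, but were not among the 6 largest falls. Prkag2 was at 1.57 FPKM in FLAG-CACUL1, below the 4.41 in FLAG but above the 0.0764 in sh-Luc.

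In sh-CACUL1 against sh-Luc, 9 of 73 (12.3%) reached 2-fold, against 21.3% of all genes. Of these, 3 (4.11%) were higher, against 4.94% of all genes, and 6 (8.22%) were lower, against 16.4%. After quantile normalization the split was 5 higher and 1 lower, with 9.0% and 8.28% of all genes. Without that step they were 2 of the 8 AMPK subunit and upstream genes, 2 of the 10 AMPK-related kinases, 1 of the 6 other mTORC1 and RHEB genes, 3 of the 25 lysosomal genes and 1 of the 10 effectors, with 0 in the other lists. Lpin1 was higher, at 33.1 FPKM against 5.72, as were Prkag2, at 2.13 against 0.0764, and the mTOR inhibitor subunit Deptor, at 9.19 against 3.53. The 6 lower genes were the AMPK-related kinases Nuak1, at 0.276 FPKM against 4.30, and Mark4, at 4.02 against 10.2, together with Camkk2, at 4.36 against 12.6, and 3 genes of lysosomal amino acid sensing. These were Sesn3, at 9.12 against 23.4, the folliculin partner Fnip2, at 3.95 against 10.6, and Lamtor3, at 23.1 against 49.6. Of the 6, only Nuak1 stayed past 2-fold after quantile normalization. When sh-CACUL1 was set against FLAG, only Mark4 of the 9 named genes reached 2-fold, at -1.30. Lpin1 was then at 0.14 and Deptor at 0.74, and Prkag2, at -0.79, Camkk2 and Lamtor3 changed direction.

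**Figure D5:**
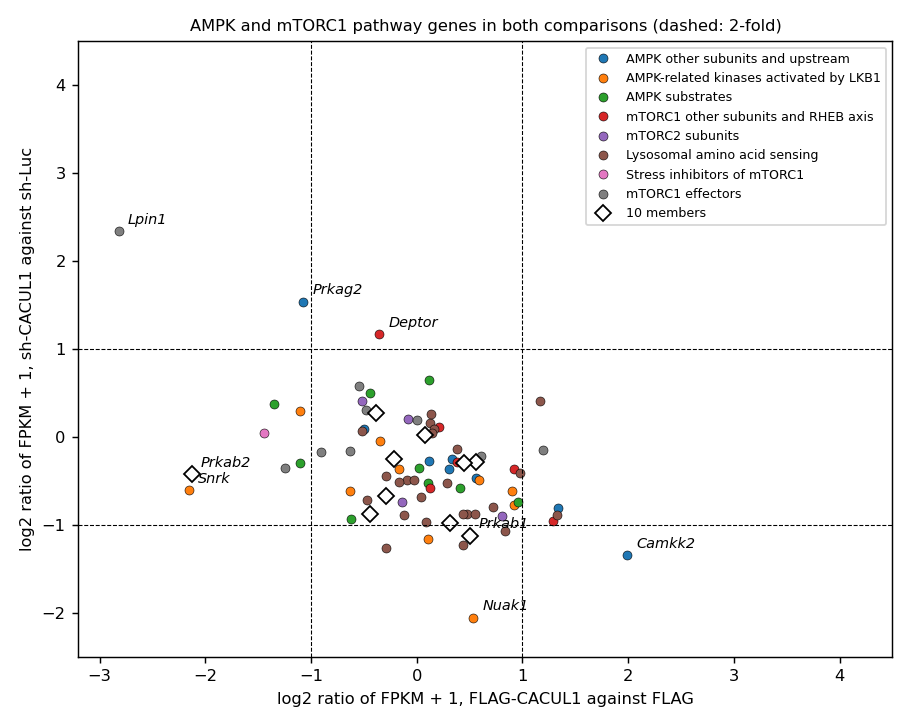
Log2 ratio of FPKM + 1 in FLAG-CACUL1 against FLAG (x axis) and in sh-CACUL1 against sh-Luc (y axis) for the 73 pathway genes, coloured by list, and the 10 genes described here (diamonds), with dashed lines at 2-fold. Lpin1 lies at -2.82 and 2.34 and Camkk2 at 1.99 and -1.35, while the diamonds other than Prkab2 and Prkab1 fall inside the dashed square.

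Genes with a profile like that of Prkab2, whose log2 level had the widest range, were sought among the 9563 genes that reached 1 FPKM in every sample. Over these 4 samples the nearest was the nucleoside transporter gene Slc29a2, at 9.96 FPKM in FLAG and 1.16 in FLAG-CACUL1 cells, with 2.01 for sh-Luc and 1.13 for sh-CACUL1, at a Euclidean distance of 0.20 between centred log2 profiles. Snrk followed at 0.21 and Khnyn at 0.26. All 3 were, like Prkab2, high in FLAG alone, which follows from the search for like profiles.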

How the data were processed

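RNA-seq was done on 4 stable 3T3-L1 lines on differentiation day 8, with 1 sample of each. The authors deposited FPKM values, computed by a sequencing company, for 13110 rows a sample, each named by RefSeq transcripts; the labels name build mm10. The aligner, the FPKM program, any filter and any scaling between samples are not given in the sources used here. Rows were joined to symbols through GENCODE M21 (GRCm38), and rows sharing a symbol were summed. The 196 rows without a symbol and 8 with several were kept, which gave 13085 genes. Differences were log2 ratios with a pseudocount of 1, so those of low genes are understated, and 2-fold served as a rule of size. With 1 sample a line no test was possible. Fragments were estimated for single-transcript rows from the spacing of low FPKM values in transcripts of at least 3000 bases, and exact 95% intervals of their ratios cover counting error only. The estimates were rounded to whole fragments. Coordinates are from GENCODE M21.

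The 10 genes, the lists and the alternatives were chosen with earlier results of these data known. Text genes were all 10 members, Cacul1, list genes past 2-fold with at least 1 FPKM in the higher sample (all if 12 or fewer, otherwise the 6 largest each way), and the 3 nearest profiles to the member of widest range. Alternatives were other pseudocounts, a filter at 1 FPKM, quantile and median-of-ratios scaling, the highest row a gene, the other control and a 1.5-fold limit. Python 3.11.15, numpy 2.4.6, scipy 1.17.1 and pandas 2.3.3 were used. The fold call, the median-of-ratios scaling and the spacing estimate of depth were tested on simulated data, and the other calculations were not.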

Additional observations from a re-analysis of the deposited data

How the results depend on the processing

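No paired analysis was possible because each line has 1 sample and the groups share only replicate number 1. For FLAG-CACUL1 against FLAG, the count of the 10 genes past 2-fold was 2 with a pseudocount of 0.1 and 2 with none, both adding Prkaa2. Both genes were lower, as were 10.5% and 12.1% of all genes at these settings. Against sh-Luc the count was 0, with 5.04% of all genes higher and 4.87% lower. The median of the 10 genes was 0.083 over genes of at least 1 FPKM, -0.18 with median-of-ratios scaling and -0.29 against sh-Luc. For sh-CACUL1 against sh-Luc the count was 3 with a pseudocount of 0.1 and 3 with none, each 1 higher and 2 lower. Of all genes, 8.29% and 10.4% were then higher and 23.5% and 26.3% lower. The count was 0 with quantile normalization (all genes 9.0% higher, 8.28% lower) and 0 with median-of-ratios scaling (9.41% and 7.45%). At 1.5-fold it was 4, all lower, as were 34.3% of all genes. The median of the 10 genes was 0.013 with quantile normalization, 0.036 with median-of-ratios scaling and -0.12 against FLAG. Between the controls the count was 2 with median-of-ratios scaling, 1 higher and 1 lower in sh-Luc, against 937 and 1565 of 13085 genes. Prkab1 in sh-CACUL1 turned to 0.24 against FLAG, where the 1 gene past 2-fold was Prkab2 instead, at -2.33. Against FLAG, 15.4% of all genes were 2-fold lower in sh-CACUL1. Of 197 values of single genes under an alternative, 181 stayed on their side of 2-fold, 9 moved past it, 6 fell short of it and 1 past it reversed. Of the 181, 22 changed sign below 2-fold and 159 did not. Some of the 159 could not change. Each gene had 1 row, so taking the highest row altered nothing, and the 1 FPKM filter only dropped Prkaa2. The counts therefore overstate how stable the values were. Against the other control, Prkaa2, Prkab1, Prkag1, Rptor and Tsc2 changed sign in both comparisons, and Tsc1 did so in sh-CACUL1.

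Among the 73 pathway genes, those higher in FLAG-CACUL1 were 11 with a pseudocount of 0.1 (15.1%, all genes 13.6%), 11 with none (all genes 16.8%), 16 at 1.5-fold (21.9%, all genes 20.03%) and 1 against sh-Luc (1.37%, all genes 5.04%), and those lower were 2 against sh-Luc (2.74%, all genes 4.87%). In sh-CACUL1 those lower were 11 with a pseudocount of 0.1 (15.1%, all genes 23.5%), 12 with none (16.4%, all genes 26.3%), 1 with quantile normalization (1.37%, all genes 8.28%), 1 with median-of-ratios scaling (all genes 7.45%) and 26 at 1.5-fold (35.6%, all genes 34.3%). Those higher were 5 with quantile normalization (6.85%, all genes 9.0%) and 6 against FLAG (8.22%, all genes 7.45%), and none of the latter was Lpin1, Prkag2 or Deptor. The cause of these changes was not tested. Protein identity of the paralogs was not computed. The 1 sample a line limits every comparison, and Prkaa2 rests on about 2 to 45 fragments.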
